A study of Sus scrofa with 4 samples.

Results

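Genes of acute phase, complement and coagulation proteins were followed in the liver of piglets fed a diet with or without added L-carnitine. The list named 58 genes, and the array held a probe set with the gene's symbol for 45 of them, among 6765 genes that could be named from probe sets with 1 symbol and 23999 probe sets in all. The measured genes were 15 of 16 acute phase proteins and related plasma carriers, 13 of 17 complement components and lectins, 12 of 18 coagulation proteins and 5 of 7 protease inhibitors. No probe set was named SAA3, MASP1, MASP2, C6, CFI, F2, F7, F10, F11, F13B, FGA, SERPINC1 or SERPINF2, and these 13 genes were not analysed here. Where a gene had several probe sets, the one with the highest mean log2 signal over the 4 arrays stood for the gene.

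Pigs of the carnitine group received a basal diet to which 500 mg/kg of L-carnitine had been added, and pigs of the control group received the basal diet alone. All were male crossbreds, (German Landrace x Large White) x Pietrain, which began the feeding period of 21 days at an age of 4 weeks and a weight of about 10 kg, and whose livers were taken at 7 weeks, 2.5 h after the last meal. Each pool combined the RNA of 4 pigs, and 2 pools per diet, which the labels call biological replicates, were each hybridized to 1 Affymetrix porcine array. A pool gives the average of its pigs, so the spread between single animals cannot be seen. All estimates of error come from differences between pools of like diet, in limma those of other probe sets included.

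The liver makes most proteins of the blood plasma. During inflammation, interleukin 6 and interleukin 1 from macrophages raise the transcription of positive acute phase proteins in hepatocytes and lower that of negative ones such as albumin and transthyretin. In pigs, haptoglobin, C-reactive protein and ITIH4 are among the well known positive acute phase proteins. Complement is a cascade of plasma proteases that marks microbes and ends in a pore in their membrane, and coagulation is a cascade that turns fibrinogen into fibrin, with plasma protease inhibitors restraining both.

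Values are the MAS5 signals that the authors deposited, which have no unit, are scaled to a common trimmed mean per array and do not allow the level of a gene to be set against that of another. The median signal of all probe sets was 109 and 113 in the carnitine group, against 114 in both pools of the control group. The GAPDH control probe sets, whose 3′ signal over 5′ signal reflects RNA integrity, had ratios of 18.7 and 16.1 in the carnitine group, against 12.5 and 11.6 in the control group. The same ratio for actin was 157 and 136 in the carnitine group, against 91.2 and 86.7 in the control group. Both measures moved with the diet, and their part in the differences below was not tested. Of 13 hepatocyte markers 9 were measured, and their summed signal was 173496 and 175252 in the carnitine group, against 174853 and 177891 in the control group. For 9 of 14 markers of Kupffer cells and macrophages the sums were 12831 and 13880 in the carnitine group, against 14577 and 13738 in the control group, and for 7 of 10 endothelial markers they were 3745 and 2448 in the carnitine group, against 2923 and 5319 in the control group. These sums overlapped between the diets, as did those of stellate cell and of T and NK cell markers, but single markers did not all do so. A sum mostly follows its brightest genes. CD5L alone gave 6867 and 8692 in the carnitine group, against 7501 and 7230 in the control group. It made up most of the macrophage sums, and their overlap rests on it. Among the 9 hepatocyte markers, both carnitine pools lay above both control pools for 3 (33.3%) and below for 4 (44.4%). Over all probe sets these shares were 19.2% and 20.4%. The log2 fold change was 1.02 for ARG1 (unadjusted p = 0.0402 in limma) and -0.56 for TAT (unadjusted p = 0.0153 in limma). Of the 9 macrophage markers 6 were below 0 (median log2 fold change -0.25). AIF1, C1QA and C1QC had both carnitine pools below both control pools (33.3%), against 20.4% of all probe sets. TYROBP had both above (11.1%), against 19.2% of all probe sets, and CD5L, the brightest, was at 0.07. Among endothelial markers ENG was at -0.65 (unadjusted p = 0.0354 in limma) without overlap. The 4 measured of 7 neutrophil markers had dim signals between 9.62 and 75.2 and each overlapped between the diets, although their sums did not, at 108 and 158 in the carnitine group, against 170.0 and 161 in the control group. Of the 2 measured of 4 red cell markers, ALAS2 was at -1.39 (unadjusted p = 0.00222 in limma) and HBB at 0.07 with overlap. The part of these cells in the differences below was not tested. In whole liver, fewer cells of a type and less RNA per cell cannot be told apart.

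Most measured differences of the plasma protein genes between the diets were small. Of the 45 genes, 40 had a log2 fold change (carnitine minus control) within 0.35 of 0, a limit chosen after the values were seen. This was 88.9%, against 48.2% of all probe sets and 80.3% of the 386 other probe sets at a mean log2 signal of 13 or more. The median log2 fold change was -0.12, against -0.02 over all probe sets, with 12 genes above 0 and 33 below 0. In limma, 0 of the 45 genes passed an adjusted p of 0.05, against 1 probe set or 0.00417% of all. At an unadjusted p under 0.05 there were 3 genes or 6.67%, against 8.65% of all probe sets. These were LBP, which was higher in the carnitine pools, and MBL2 and F5, which were lower. A difference of 2-fold or more was found for 1 gene, MBL2, against 16.0% of all probe sets. A one-factor analysis of variance of each gene alone gave 0 genes after adjustment and 3 before it, of which LBP was common to both tests and CFB and PROC took the place of MBL2 (unadjusted p of 0.225) and F5 (0.0682). The standard error of a log2 fold change in limma ranged from 0.18 to 0.79 with a median of 0.20, and the 95% confidence interval of the typical gene reached 0.48 to either side. These errors draw on the spread of other probe sets at a like signal. From its own pools alone, by the analysis of variance, CFB had a standard error of 0.0156, against 0.19 in limma. For MBL2 these were 1.47 and 0.79.

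**Figure D1:**
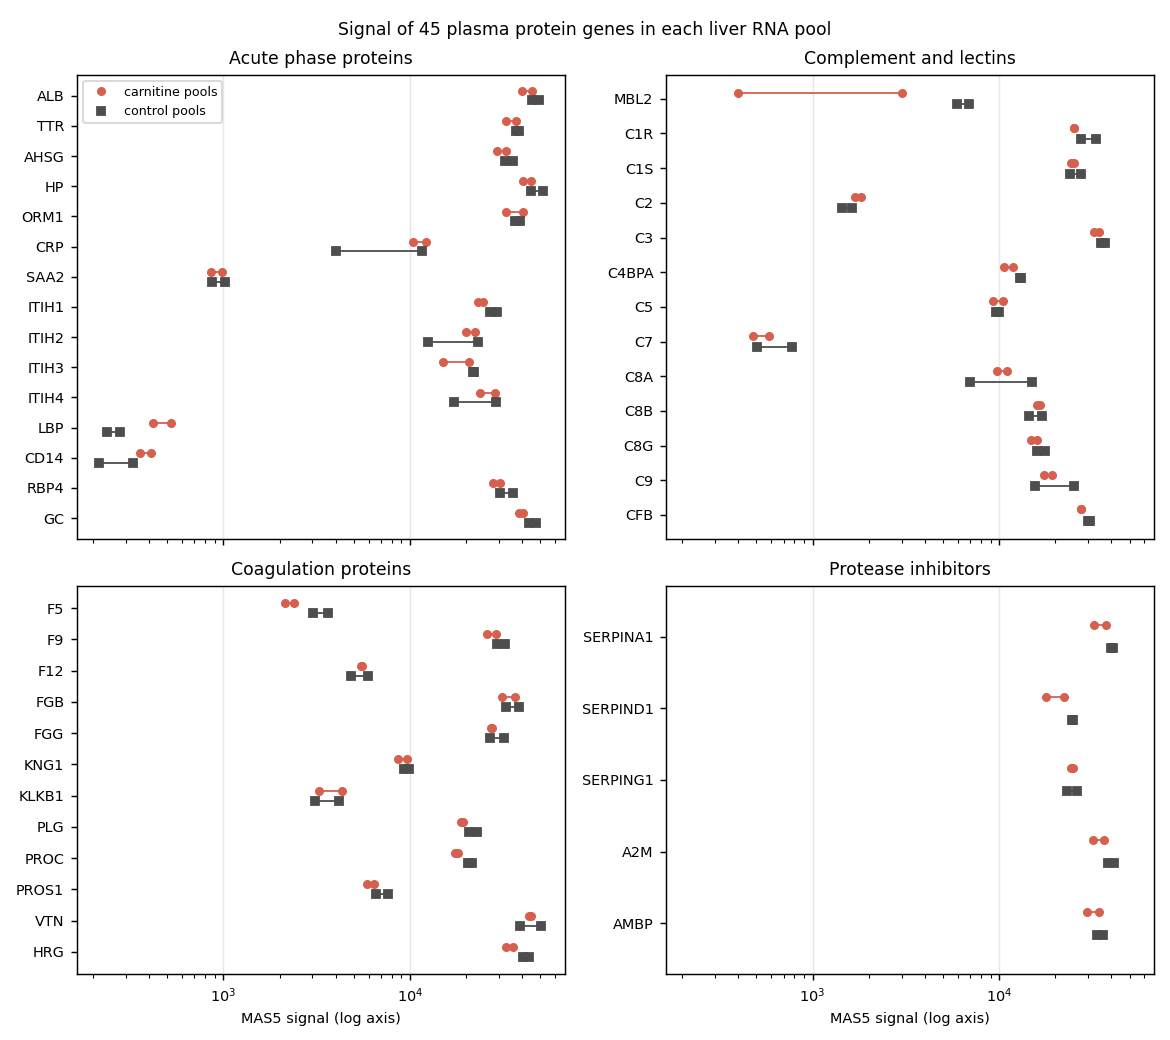
MAS5 signal (log axis) of the 45 measured genes in each pool, with carnitine pools as red circles, control pools as grey squares and a line from pool to pool within each diet. The carnitine points lie left of both control points for 19 genes and right of both for LBP, CD14 and C2, and MBL2 has the widest gap between pools of the same diet.

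Both carnitine pools lay below both control pools for 19 of the 45 genes (42.2%), against 20.4% of all probe sets. Both lay above for 3 genes (6.67%), against 19.2% of all probe sets, and for the other 23 genes the diets overlapped. The plot of the signals by pool shows these orders gene by gene. The signals were also among the highest of the array: 30 of the 45 genes lay above the 99th percentile of all probe sets and 38 above the 95th.

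Among the 15 acute phase proteins and carriers, the median log2 fold change was -0.10, with 5 genes above 0 and 10 below 0. LBP, the lipopolysaccharide binding protein that hands bacterial lipopolysaccharide to CD14, had signals of 420.3 and 526 in the carnitine group, against 239 and 281 in the control group, so the lower carnitine pool lay well above the higher control pool. Its mean signal was 473 ± 74.4 in the carnitine group, against 260 ± 29.7 in the control group (SD, n = 2 pools each). The log2 fold change was 0.86 (standard error, SE, 0.26, 95% confidence interval 0.25 to 1.47, unadjusted p = 0.0127, adjusted p = 0.446 in limma). The same gene had a dimmer probe set with signals of 23.0 and 19.9 in the carnitine group, against 27.9 and 24.2 in the control group, which ran the other way, and with the mean over both probe sets the log2 fold change was 0.29. For the brighter probe set it ranged from 0.70 (without carnitine pool 2) to 1.02 (without carnitine pool 1) when each pool was left out in turn. A diet with a lone pool shows no spread of its own.

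CD14, the receptor to which LBP delivers its ligand, had 356 and 409 in the carnitine group, against 216 and 328 in the control group. The groups did not overlap, but control pool 2 was close to the carnitine pools, and the log2 fold change of 0.52 (SE 0.30) had an adjusted p of 0.682 in limma. Leaving out control pool 1 gave 0.22 and leaving out control pool 2 gave 0.82, and a second, dimmer probe set gave -0.32. TLR4 and LY96, which form the receptor complex that takes over the ligand, had log2 fold changes of -0.32 each, with unadjusted p of 0.302 and 0.287 in limma. Carrier and docking receptor thus had means above 0 and these 2 genes below 0, and whether the genes differed from each other was not tested.

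CRP, the C-reactive protein that binds phosphocholine on microbes and damaged cells, had signals of 12220.2 and 10397 in the carnitine group, against 11643 and 4016 in the control group. Control pool 1 lay between the carnitine pools and control pool 2 far below all others. The log2 fold change was 0.72 (SE 0.45, adjusted p = 0.698 in limma). Leaving out control pool 2 gave -0.05 and leaving out control pool 1 gave 1.49, with adjusted p of 0.952 and 0.0920 in limma, so the value rested on 1 pool. The gene table holds a neighbouring copy of the same symbol, and signal from near-identical copies cannot be separated here.

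The brightest genes of the group had small differences. ALB, the main carrier of plasma and a negative acute phase protein, had 45232 and 39815 in the carnitine group, against 49289 and 45404 in the control group, which gave a log2 fold change of -0.16 (SE 0.21), and carnitine pool 1 lay just under the lower control pool. HP, the haptoglobin that binds free haemoglobin, had 44644 and 40332 in the carnitine group, against 51684 and 44328 in the control group, which gave a log2 fold change of -0.17 (SE 0.21), and its groups overlapped. These opposite members of the acute phase response thus had nearly the same value. TTR, the transthyretin that carries thyroid hormone, was at -0.10, AHSG, the fetuin that binds calcium phosphate, at -0.13, and ORM1, the orosomucoid that binds drugs and lipids, at -0.06. RBP4, the carrier of retinol, was at -0.18 and GC, the carrier of vitamin D, at -0.21, each with both carnitine pools below both control pools. SAA2, a serum amyloid A that joins high density lipoprotein, was at -0.04, while its second probe set had 304 and 566 in the carnitine group, against 214 and 263 in the control group, which gave a log2 fold change of 0.81 (unadjusted p = 0.0543 in limma).

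The inter-alpha-trypsin inhibitor heavy chains, several of which bind hyaluronan in the matrix, had no common direction. ITIH3 had 20784 and 15057 in the carnitine group, against 21997 and 21874 in the control group, which gave a log2 fold change of -0.31 (SE 0.22), with carnitine pool 2 apart from the other 3 pools. ITIH1 was at -0.23, with both carnitine pools below both control pools. ITIH2 and ITIH4 were at 0.31 and 0.23, and in both the control pools lay wide apart, by 0.89 and 0.75 on the log2 scale, on either side of the carnitine pools. ITIH1, ITIH3 and ITIH4 are direct neighbours in the order of genes of the pig assembly Sscrofa11.1, and only the last had a value above 0. Adjusted p in limma ranged from 0.738 to 0.864 over the 4 genes.

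Complement and lectin genes had a median log2 fold change of -0.11, with 4 genes above 0 and 9 below 0. MBL2, the mannose binding lectin that starts the lectin pathway by binding sugars on microbes, differed most of all 45 genes. It had signals of 3018 and 397 in the carnitine group, against 6902 and 5917 in the control group. Both carnitine pools were lower than both control pools, at 51.0% and 6.71% of the lower control pool, but the carnitine pools differed from each other by 7.60-fold and the control pools by 1.17-fold. The means were 1707 ± 1853 in the carnitine group, against 6410 ± 696 in the control group (SD, n = 2 pools each). The log2 fold change was -2.55 (SE 0.79, 95% confidence interval -4.41 to -0.68, unadjusted p = 0.0144, adjusted p = 0.459 in limma), which is 5.84-fold lower. Without carnitine pool 1 it was -4.01 and without carnitine pool 2 it was -1.08, with adjusted p of 0.240 and 1.00 in limma, so the direction held with either carnitine pool and the size did not. The gene has 1 probe set, and the partner proteases MASP1 and MASP2 had none.

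Both proteases of the first component of the classical pathway were measured. Its C1q chains C1QA and C1QC, which are outside the gene list, were at -0.32 and -0.54. In each, both carnitine pools lay below both control pools (unadjusted p of 0.158 and 0.0617 in limma). C1R, which activates C1S, had 25117 and 25278 in the carnitine group, against 33147 and 27412 in the control group, which gave a log2 fold change of -0.26 (SE 0.21), with the carnitine pools nearly alike and below both control pools. C1S, which cleaves C4 and C2 and lies next to C1R in the genome, was at -0.06 with overlapping groups. C2, the protease of the classical C3 convertase, had 1816 and 1692 in the carnitine group, against 1440 and 1627 in the control group, which gave a log2 fold change of 0.20 (SE 0.19), 1 of the 3 genes with both carnitine pools above both control pools. CFB, its counterpart in the alternative pathway and its neighbour in the genome, had 27450 and 27343 in the carnitine group, against 30780 and 30133 in the control group, which gave a log2 fold change of -0.15 (SE 0.19), with the carnitine pools below. C4BPA, the binding protein that restrains the convertase, had 10609 and 11886 in the carnitine group, against 13119 and 12957 in the control group, which gave a log2 fold change of -0.22 (SE 0.19), again with the carnitine pools below. The entry with which this probe set is paired also carries the name APOR, and a second gene of the symbol C4BPA lies beside it.

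C3, on which the 3 pathways converge, had 34436 and 32139 in the carnitine group, against 37043 and 35024 in the control group, which gave a log2 fold change of -0.11 (SE 0.20, adjusted p = 0.905 in limma). Its groups did not overlap, though the gap between them was small. By their brightest probe sets, the terminal components, which form the membrane pore, centred near 0. C5 was at 0.01, C8B at 0.06 and its neighbour C8A at 0.02, while C8G was at -0.12, C9 at -0.11 and C7 at -0.24, all with overlapping groups and with adjusted p from 0.846 to 0.994 in limma. For C8A the carnitine pools stood at 11082 and 9761, between the control pools at 14949 and 6998, and C9 had the same layout. The second probe sets of C8B and C8G were at -0.35 and -0.20, each with both carnitine pools below both control pools. Those of C7 and C9 were at 0.10 and 0.59 with overlap.

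Among the 12 coagulation genes, the median log2 fold change was -0.13, with 2 genes above 0 and 10 below 0. Both carnitine pools lay below both control pools for 6 genes (50.0%) and above for 0. Over all probe sets these shares were 20.4% and 19.2%. For the other probe sets at a mean log2 signal of 13 or more they were 40.7% and 9.84%. F5, the cofactor with which factor Xa makes thrombin, had signals of 2396 and 2147 in the carnitine group, against 3629 and 3036 in the control group, with no overlap. The means were 2271 ± 176 in the carnitine group, against 3332 ± 420 in the control group (SD, n = 2 pools each). The log2 fold change was -0.55 (SE 0.19, 95% confidence interval -1.0 to -0.10, unadjusted p = 0.0241, adjusted p = 0.494 in limma), which is 1.46-fold lower. It ranged from -0.68 to -0.42 when each pool was left out in turn, where 1 diet has a lone pool whose spread cannot be seen.

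The anticoagulant protein C system, which inactivates factor V, also had values below 0. PROC, the protein C itself, had 17481 and 18079 in the carnitine group, against 21404 and 20406 in the control group, which gave a log2 fold change of -0.23 (SE 0.19). PROS1, the protein S that assists it, had 5877 and 6392 in the carnitine group, against 6542 and 7622 in the control group, which gave a log2 fold change of -0.20 (SE 0.19). In both genes the carnitine pools lay below the control pools, with adjusted p of 0.770 and 0.800 in limma. HRG, a histidine rich glycoprotein that binds heparin and plasminogen, had 35915 and 32668 in the carnitine group, against 43734 and 40366 in the control group, which gave a log2 fold change of -0.29 (SE 0.20), also without overlap. VTN, the vitronectin that holds plasminogen activator inhibitor in its active form, had 44845 and 43596 in the carnitine group, against 50707 and 38892 in the control group, which gave a log2 fold change of -0.01 (SE 0.23), with the control pools on either side of the carnitine pools.

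The remaining coagulation genes lay between -0.20 and 0.06. PLG, the precursor of the fibrin cleaving plasmin, was at -0.20 and F9, the antihaemophilic factor IX, at -0.16, both without overlap. The fibrinogen chains FGB and FGG were at -0.08 and -0.09 with overlap. The contact system, which starts clotting at surfaces, centred on 0, with F12 at 0.04, its activator KLKB1 at 0.06 and KNG1, the kininogen that yields bradykinin, at -0.08. KNG1 had 4 probe sets, and all 4 were below 0, at -0.08, -0.30, -0.37 and -0.43, with unadjusted p from 0.102 to 0.681 in limma.

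The 5 protease inhibitors had a median log2 fold change of -0.21, with 1 gene above 0 and 4 below 0. SERPINA1, the antitrypsin that guards tissue from neutrophil elastase, had 37521 and 32371 in the carnitine group, against 40940 and 39699 in the control group, which gave a log2 fold change of -0.21 (SE 0.21). SERPIND1, the heparin cofactor that inhibits thrombin, had 22212 and 17832 in the carnitine group, against 24891 and 24457 in the control group, which gave a log2 fold change of -0.31 (SE 0.21). In both genes the groups did not overlap, and carnitine pool 2 was the lowest. A2M, the macroglobulin that traps proteases of all classes, had 36590 and 31670 in the carnitine group, against 41130 and 38468 in the control group, which gave a log2 fold change of -0.22 (SE 0.21). Both of its dimmer probe sets were also below 0, at -0.78 (unadjusted p = 0.0410 in limma) and -0.38. AMBP, the precursor of bikunin, which joins the inter-alpha-trypsin inhibitor chains, had 34100 and 29758 in the carnitine group, against 35844 and 33402 in the control group, which gave a log2 fold change of -0.12 (SE 0.20) with overlap. SERPING1, the inhibitor of C1R, C1S and plasma kallikrein, was at 0.01. Adjusted p ranged from 0.713 to 0.993 in limma over the 5 genes.

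The small downward shift was shared by other bright probe sets. At a mean log2 signal of 13 or more, a limit chosen after the values were seen, there were 35 of the 45 genes, with a median log2 fold change of -0.12, 80.0% of them below 0 and 45.7% with both carnitine pools below both control pools. The 386 other probe sets in this range, which carry none of the listed gene symbols, had a median of -0.12, with 73.6% below 0 and 40.7% with both carnitine pools below, and over all 423 probe sets of the range, second probe sets of the listed genes included, this share was 40.9%. The 10 listed genes below this signal had a median of 0.00, with 5 above 0 and 5 below 0. Among the other probe sets the median was -0.03 below 8 on the log2 scale, 0.01 from 8 to 9, 0.02 from 9 to 10 and from 10 to 11, -0.01 from 11 to 12, -0.06 from 12 to 13, -0.10 from 13 to 14, -0.14 from 14 to 15 and -0.12 at 15 or more, where 96.6% lay below 0. The highest signal of any probe set was 53020 and 46892 in the carnitine group, against 57962 and 49220 in the control group, and whether signals near that end still follow the amount of transcript was not tested.

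**Figure D2:**
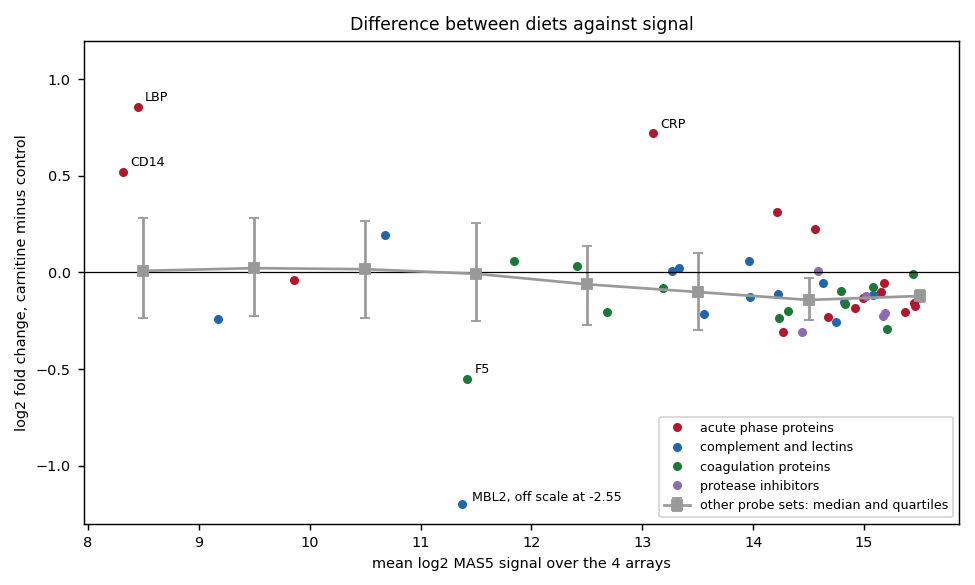
Log2 fold change (carnitine minus control) of each gene against its mean log2 MAS5 signal over the 4 arrays, with grey squares and bars for the median and quartiles of all other probe sets per unit of log2 signal from 8 upward. Most genes sit at the bright end, where the grey medians are near -0.12, while LBP, CD14, CRP, F5 and MBL2 (drawn at the lower edge, value -2.55) lie away from them.

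Under quantile normalization, which gives all arrays the same distribution of signals, the shift was gone. A shift shared by the brightest probe sets is removed by construction in this setting, so its absence does not show which scaling is right. The median log2 fold change of the 45 genes was then -0.01, with 22 above 0 and 23 below 0. Both carnitine pools lay above for 8 genes and below for 6. Of all probe sets, 20.0% had both carnitine pools below under this scaling, and the share above was not counted. The other bright probe sets had a median of 0.00 in that setting. With arrays centred on their median signal, 13 genes were above 0 and 32 below 0. Single genes moved by -0.03 to 0.19 on the log2 scale under quantile normalization. ALB was then at 0.03, HP at -0.01 and C3 at 0.01, whereas LBP was at 0.85, F5 at -0.53 and MBL2 at -2.53, close to their values under the deposited scaling. Which scaling is closer to the amounts of RNA was not tested.

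**Figure D3:**
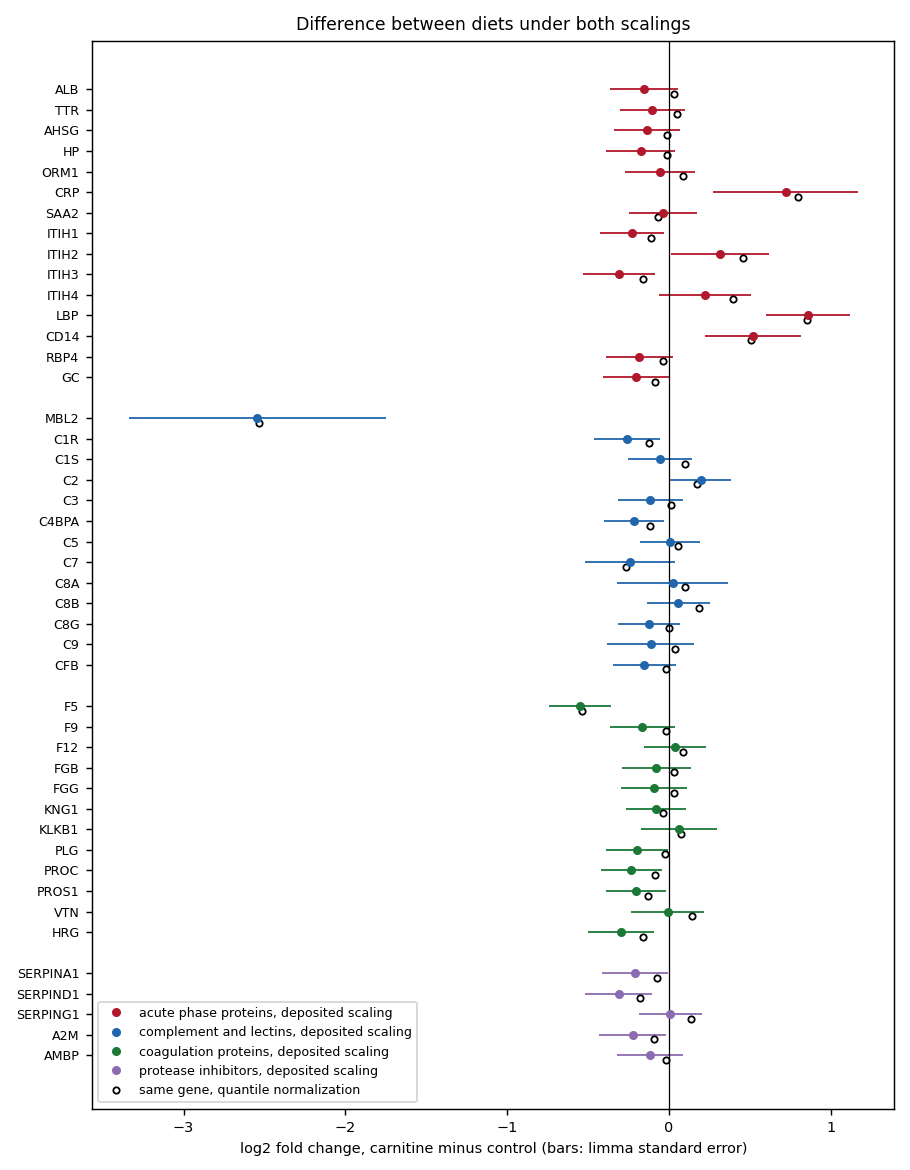
Log2 fold change (carnitine minus control) of the 45 genes by group, filled points with bars of 1 limma standard error for the deposited scaling and open circles for quantile normalization. Under quantile normalization most bright genes move right to about 0, with 22 above 0 and 23 below 0, while LBP, MBL2 and F5 keep their place.

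The pools had an order in many genes. Carnitine pool 2 gave the lowest signal for 23 of the 45 genes (51.1%) and control pool 1 the highest for 31 (68.9%). Among the other bright probe sets these shares were 50.0% and 48.4%. Pools of the same diet were close for most genes, with a median distance of 0.16 on the log2 scale between the carnitine pools and 0.18 between the control pools. A distance above 0.5 occurred for 1 gene between the carnitine pools (MBL2, 2.93) and for 7 genes between the control pools (CRP 1.54, C8A 1.1, ITIH2 0.89, ITIH4 0.75, C9 0.71, C7 0.62 and CD14 0.60). Control pool 1 was the higher in CRP, C8A, ITIH4 and C9 and the lower in ITIH2, C7 and CD14. Among the other bright probe sets 6.48% exceeded this distance between the carnitine pools and 16.6% between the control pools.

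**Figure D4:**
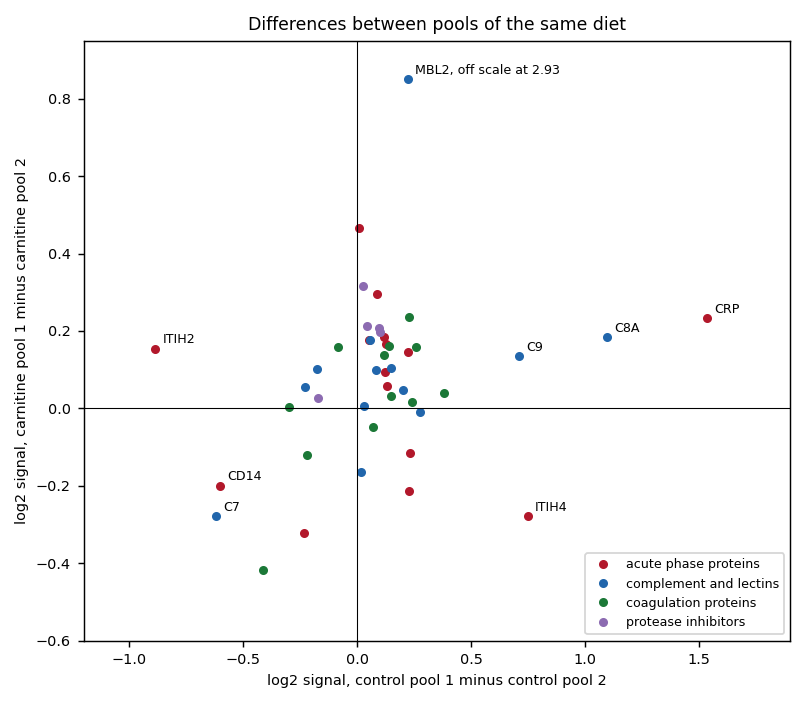
Log2 difference between the pools of the same diet for each gene, carnitine pools on the vertical axis and control pools on the horizontal axis. Most genes lie near the origin, CRP and C8A lie far to the right at 1.54 and 1.1, and MBL2 is drawn at the upper edge with its value of 2.93.

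Probe sets of 1 gene did not always run the same way. Of the 45 genes, 18 had several probe sets and 27 had 1, 69 probe sets in all, and in 10 of the 18 genes the probe sets had values on both sides of 0. The second probe set of F9 had 11244 and 9940 in the carnitine group, against 5673 and 13076 in the control group, and that of RBP4 had 18633 and 16881 in the carnitine group, against 24105 and 8805 in the control group. In both, the control pools lay on either side of the carnitine pools, whereas the brightest probe set of the same gene had both carnitine pools below. For C9 and CFB the brightest probe sets were at -0.11 and -0.15 and the dimmer ones at 0.59 and 0.54.

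**Figure D5:**
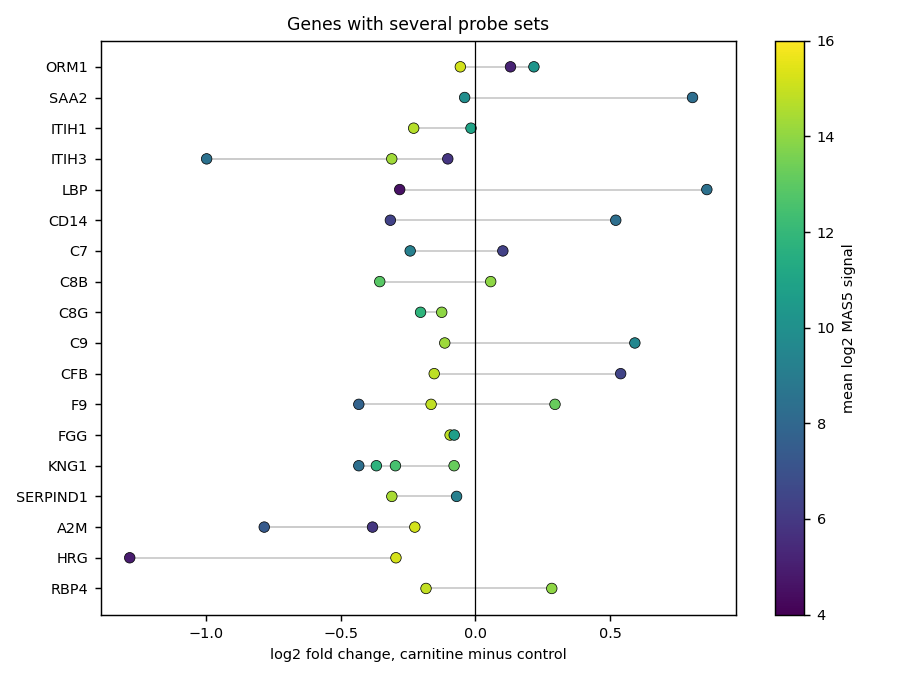
Log2 fold change (carnitine minus control) of every probe set of the 18 genes with several, 1 row per gene, coloured by mean log2 MAS5 signal. In 10 genes the points lie on both sides of 0, while all 4 points of KNG1 lie below it.

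Further plasma proteins of the same systems also had more values below 0 than above, and ranged from -1.36 to 1.46. Of 52 such genes 34 were measured, with a median log2 fold change of -0.18, 8 above 0 and 26 below 0, and 0 passed the adjusted p in limma. Within 0.35 of 0 lay 19 of the 34 (55.9%), against 48.2% of all probe sets. At 2-fold or more, 1 was higher (TFPI, the tissue factor pathway inhibitor, with dim signals of 48.9 and 71.2 in the carnitine group, against 42.9 and 10.7 in the control group) and 1 was lower (PTX3). Of all probe sets, 16.0% differed by 2-fold or more in either direction. At an unadjusted p under 0.05, 0 had higher and 5 had lower means in the carnitine group, 14.7% against 8.65% of all probe sets. APOH, a glycoprotein that binds phospholipid surfaces, had 10627 and 11039 in the carnitine group, against 14477 and 16113 in the control group (log2 fold change -0.50). SERPINA5, the protein C inhibitor, had 9581 and 11177 in the carnitine group, against 19054 and 13717 in the control group (-0.64), and SERPINA7, the thyroxine carrier, had 2324 and 2386 in the carnitine group, against 5174 and 3131 in the control group (-0.77). The groups did not overlap in these 3 genes. CFD, the protease that cleaves factor B, had 1504 and 1124 in the carnitine group, against 1777 and 3260 in the control group (-0.89). PTX3, a long pentraxin, gave dim signals of 23.7 and 33.2 in the carnitine group, against 53.9 and 96.7 in the control group (-1.36). In both genes the carnitine pools lay below the control pools. HAMP, the iron hormone hepcidin and an acute phase peptide, had 349 and 1139 in the carnitine group, against 4968 and 120 in the control group, and its spread between the control pools exceeded any difference between the diets.

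Receptors, messengers and transcription factors of the acute phase response had no common direction. Of 33 genes 24 were measured, with a median log2 fold change of -0.03, 11 above 0 and 13 below 0, and 0 passed the adjusted p in limma. At an unadjusted p under 0.05, 3 had higher and 0 lower means in the carnitine group, 12.5% against 8.65% of all probe sets. CEBPA, a factor of the mature hepatocyte, had 414 and 516 in the carnitine group, against 215 and 301 in the control group (log2 fold change 0.86). FOXA1, a pioneer factor of liver genes, had 826 and 1306 in the carnitine group, against 632 and 387 in the control group (1.07), and SOCS1, which dampens cytokine signals, had 221 and 147 in the carnitine group, against 71.4 and 110.5 in the control group (1.02). In all 3 genes the diets did not overlap. STAT3, which carries the interleukin 6 signal to acute phase genes, was at 0.09 (unadjusted p = 0.640 in limma). CEBPB, which is induced in the acute phase, had 2760 and 3241 in the carnitine group, against 3830 and 4359 in the control group (-0.45, unadjusted p = 0.0501 in limma), and SOCS3 gave signals between 3.09 and 11.5, too dim to compare.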

How the data were processed

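Liver RNA pools of the carnitine group and the control group, 2 per diet with 4 pigs each, were measured on 4 arrays. The authors' deposited values are signal intensities on a linear scale from MAS5, scaled so that arrays share 1 trimmed mean. Software in the submitters' notes was MAS5 5.0, GCOS 1.1.2 and Affymetrix Expression Console 1.1. Detection calls and probe values were not used here. All columns were matched to pools by their labels.

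Log2 values were taken with no pseudocount and no filter, 124 of 24123 probe sets, the Affymetrix controls, were left out, and 23999 were fitted with limma 3.58.1 in R 4.3.3 (lmFit, eBayes with a variance trend), with Benjamini-Hochberg adjustment over all of them. The fit has 2 residual degrees of freedom, and the number of arrays limits the precision. An exact permutation test of 2 pools against 2 cannot give a two-sided p below 0.333. Symbols came from the platform annotation, updated through RefSeq (Sscrofa11.1), which can be old: 10069 probe sets had 1 symbol, 198 several and 13732 none.

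Every measured gene was named. Signals per pool were given for genes at an unadjusted p under 0.05 or at 2-fold, for up to 4 genes of each group with the smallest p and for the 2 brightest of each group. Genes of the pathway lists were named at an unadjusted p under 0.05. TLR4, LY96, STAT3, CEBPB, SOCS3, HAMP and TFPI, the cell type markers, the second probe sets and C8A were added after their values were seen. The genes and lists were chosen with earlier results of these data known. Alternatives were quantile normalization, median centring, a floor at the 25th percentile, an offset of 64, a filter at the median signal, the mean over probe sets, no variance trend, a one-factor analysis of variance, which the study's statistics section names without saying that it was used for the arrays, arithmetic means, the replicate number as a block and leaving out each pool. The fit was tested on simulated data with known differences.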

Additional observations from a re-analysis of the deposited data

How the results depend on the processing

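The number of genes past the adjusted p in limma was 0, and with the replicate number as a block it was 1 (MBL2, adjusted p = 0.0153). The labels do not say whether same-numbered pools belong together. Over all probe sets the differences between pool 1 and pool 2 of the diets correlated at 0.00488, which does not decide this for the listed genes. Their median difference, pool 1 minus pool 2, was 0.10 on the log2 scale in both diets. The number at an unadjusted p under 0.05 was 3, it was 1 without a variance trend, and it ranged from 1 (without carnitine pool 2) to 6 (without control pool 2) when each pool was left out, with 5 without control pool 1. Those fits assume that the lone pool varies like the other diet's. The number at 2-fold was 1, and 1 to 2 with a pool left out, where LBP joined MBL2 without carnitine pool 1 and CRP did so without control pool 1. The number of genes whose pools did not overlap was 22, and it was 14 under quantile normalization (8 higher, 6 lower). Of all probe sets, 20.0% had both carnitine pools below under quantile normalization, against 20.4% under the deposited scaling. With a pool left out the number of genes was 27 to 40, where fewer pools overlap less by construction.

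The median log2 fold change of the acute phase genes was -0.10, but 0.0503 with the mean over probe sets and 0.0311 under quantile normalization, and -0.19 to -0.05 with a pool left out. For complement and lectins it was -0.11, but 0.0102 under quantile normalization, and -0.17 to -0.0573 with a pool left out. For coagulation it was -0.13, -0.0221 under quantile normalization and -0.21 to -0.12 with a pool left out, and for the inhibitors -0.21, -0.0712 and -0.32 to -0.10. Of 273 values of 21 genes under the alternatives, 120 equal the first value, most of them by construction, since another variance model, filter or block leaves the means as they are. Of the other 153, 8 had the opposite sign, in 5 genes, namely ALB (0.0311) and C3 (0.0102) under quantile normalization, CFB with the mean over probe sets (0.19), VTN under median centring (0.0322), quantile normalization (0.14) and with a pool left out (-0.20 to 0.19), and CRP with a pool left out (-0.0468 to 1.49). The cause was not tested. Without detection calls, how far dim signals exceed background is unknown, and the dimmer probe sets of LBP and CD14 had larger standard errors than the brighter ones.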
